A study of Zea mays with 24 samples.

Results

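The endosperm adjacent to the scutellum (EAS) was compared with endosperm (End) of the maize seed in 8 RNA-seq libraries, 4 of each tissue, out of 24 libraries from 6 seed tissues. The 8 libraries were taken by their labels alone, and no measured value was used to choose them. Plants were untreated, of wild type B73, a maize inbred, and were kept in a greenhouse. The labels give no seed age and no allele beyond wild type. Harvest days of EAS were labelled 27 April, 1 May, 5 April and 18 May for replicates 1 to 4, and those of End 27 April, 1 May, 4 May and 18 May. Whether the label of EAS replicate 3 has day and month exchanged is not known. The 4 other tissues, apical scutellum (AS), scutellar aleurone layer (SAL), embryo (Emb) and pericarp (Per), serve to place the levels. The labels do not say whether End samples also held EAS or SAL tissue, nor how many kernels went into a library.

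In the maize kernel the endosperm is the storage tissue that fertilisation forms beside the embryo. Its starchy cells fill with starch and zein proteins, and its outermost layer becomes the aleurone. The scutellum is the absorptive organ of the grass embryo, and it grows into the endosperm while the seed fills, so that EAS is the endosperm face through which nutrients pass to the embryo. MicroRNAs are short RNAs cut from polyadenylated precursor transcripts, and they guide the cleavage or repression of matching messenger RNAs. The question the comparison addresses is how this face differs from the endosperm at large.

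Each library reported 41768 features, 41614 genes by identifier and 154 microRNA loci by name. None of the tables used here pairs the identifiers with gene names, so at most 2 identifiers are given in each direction, tissue markers could not be looked up by name, and named results are those of microRNA loci. Reads counted in features numbered between 45300538 and 51751489 in the EAS libraries and between 43807706 and 53254694 in the End libraries. Levels are given in CPM (counts-per-million) on library sizes scaled by TMM, edgeR's trimmed mean of M-values, and are not corrected for gene length. Libraries of the same tissue correlated at a Spearman rho of 0.989 or more across features, EAS with End libraries at 0.936 to 0.956, and EAS with AS libraries at 0.753 to 0.781. These values describe similarity, since genes are not independent replicates.

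The layer facing the scutellum lost more features than it gained. Of 26543 features tested, 401 were at least 8-fold higher in EAS, which is 1.51%, and 1254 were at least 8-fold lower, which is 4.72% (edgeR quasi-likelihood test over the 24 libraries, Benjamini-Hochberg adjusted p under 0.05). With a filter of 1 CPM in 4 of the 8 libraries, which left 19301 features, these counts were 216 and 507, and with the 8 libraries fitted alone the lower count was 825 of 22572. At 2-fold or more, 2196 features (8.27%) were higher and 4232 (15.9%) lower. At any fold, 8012 (30.2%) were higher and 8499 (32.0%) lower. The balance at any fold is set largely by scaling: on library size alone, which moves the median log2 fold change of all features from -0.01 to 0.15, the numbers were 10727 higher and 6584 lower, while those past 8-fold were 478 and 1095. In whole-tissue RNA, fewer cells of a type and less RNA per cell cannot be told apart.

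**Figure D1:**
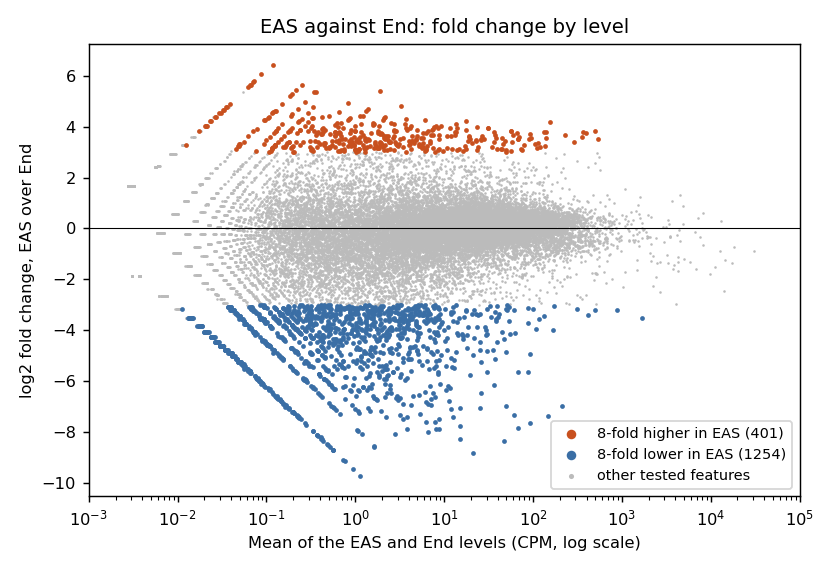
Fitted log2 fold change of EAS over End for the tested features (vertical axis) against the mean of their EAS and End levels in CPM (horizontal axis, log scale); features with 0 CPM in both are not drawn. Orange points are the 401 features called 8-fold higher in EAS, blue points the 1254 called 8-fold lower, of which 178 pass 64-fold against 2 orange points.

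Gains and losses differed in depth as well as in number. Gained features sat close to the 8-fold limit: their median log2 fold change was 3.55 (3.49 with features at 0 reads in End set to their bound). Lost features had a median of -4.14 (-3.81 with features at 0 reads in EAS set to their bound). Among features with more than 3 reads in the lower tissue, where the fold does not hang on single reads, 43 were 16-fold or more higher in EAS and 347 were 16-fold or more lower. At 32-fold or more, 1 such feature was higher and 153 were lower, and at 128-fold or more there were 0 and 25.

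The same contrast held among well-expressed features. At a mean of 20 CPM or more in the higher tissue, 76 features were called 8-fold higher in EAS and 105 were called 8-fold lower. For the 76, the ratio of mean levels, EAS over End, ran from 8.08 to 19.2 with a median of 11.5. None of the 76 had a mean under 1 CPM in End. For the 105, the ratio of mean levels, End over EAS, ran from 8.03 to 473 with a median of 17.6, and 26 of them had a mean under 1 CPM in EAS. The well-expressed gains of EAS thus all had a measurable level in End, whereas 26 of the 105 well-expressed losses were close to absent from EAS. Whether End samples held some EAS tissue is not stated, and a shared tissue and a lower level in all endosperm cells cannot be told apart.

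**Figure D2:**
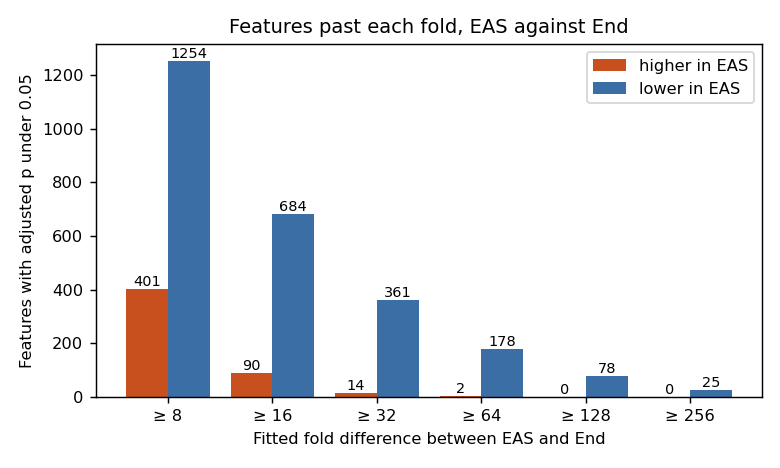
Number of features with an adjusted p under 0.05 (vertical axis) whose fitted fold difference between EAS and End reaches each limit (horizontal axis). Orange bars are features higher in EAS and blue bars features lower in EAS; the orange bars drop from 401 at 8-fold to 14 at 32-fold, and the blue bars from 1254 to 361.

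Many of the losses lay at low levels. The median level of the 1254 lost features was 0.0422 CPM in EAS and 1.00 CPM in End, and that of the 401 gained features was 2.28 CPM in EAS and 0.194 CPM in End. In EAS, 215 of the lost features had 0 reads in the 4 libraries together. Against a floor of 3 reads summed over the tissue, 79 of these were bounded as at least 8-fold lower and 136 had smaller bounds. In End, 24 of the gained features had 0 reads, and 2 of them were bounded as at least 8-fold higher.

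The excess of losses shrank as the level rose. Among 6851 features with a mean under 1 CPM over the 8 libraries, 183 were called 8-fold higher in EAS and 745 were called 8-fold lower. Among 7045 features between 20 and 100 CPM the numbers were 40 and 55. Of 2216 features between 100 and 1000 CPM, 16 were higher and 11 lower. Of the 97 features at 1000 CPM or more, 0 were 8-fold higher and 1 was 8-fold lower, although at 2-fold the numbers were 4 and 28.

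The 401 gained features took 0.784%, 1.13%, 1.20% and 1.07% of the reads in EAS replicates 1 to 4, and between 0.0655% and 0.0835% in the End libraries. The 1254 lost features took 0.0698%, 0.136%, 0.0503% and 0.187% in EAS replicates 1 to 4, and between 1.05% and 1.48% in the End libraries. These shares are descriptions, because the same libraries chose the features. They show that the residue of the lost features was uneven among EAS libraries, highest in replicates 2 and 4. Within same-numbered pairs, the median log2 difference of EAS minus End was 3.21, 3.46, 3.51 and 3.30 for the gained features, and -3.54, -3.53, -4.00 and -3.35 for the lost features, for pairs 1 to 4.

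Zm00001d025399 had the largest fold among gained features with a mean of 20 CPM or more in EAS. It had 18.2, 44.998, 33.6 and 36.8 CPM in EAS replicates 1 to 4, and 1.34, 1.92, 1.25 and 2.46 CPM in End replicates 1 to 4. All EAS libraries lay above all End libraries (log2 fold change 4.24 with an SE of 0.35 derived from the F statistic; adjusted p by edgeR = 1.14e-10). It had 0 reads in the 4 AS libraries and 0.515 ± 0.486 CPM in SAL (SD, n = 4), so that End was the tissue with the next highest mean.

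Zm00001d037439 was the gained feature with the highest level in EAS. It had 775, 984, 1148 and 1054 CPM in EAS replicates 1 to 4, against 82.3, 83.4, 90.3 and 87.1 CPM in End replicates 1 to 4 (log2 fold change 3.53 ± 0.27 SE by edgeR, adjusted p = 2.15e-10). The End libraries differed little among themselves, and the lowest EAS library was far above them. Its mean was 104 ± 26.6 CPM in SAL, 5.54 ± 2.22 in Per, 0.461 ± 0.430 in Emb and 0.251 ± 0.0988 in AS (SD, n = 4 each), so its level across the interface, in the scutellum, was close to 0.

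Zm00001d051110 had the largest fold among lost features with a mean of 20 CPM or more in End. Its EAS libraries held 0.0477, 0.0880, 0.103 and 0.120 CPM, from 15 reads in all, against 25.03, 49.2, 44.0 and 50.9 CPM in End replicates 1 to 4 (log2 fold change -8.85 ± 0.36 SE by edgeR, adjusted p = 1.09e-15). The mean was 473 times as high in End, and the lowest End library was far above the highest EAS library. Its highest mean was in SAL, at 248 ± 53.3 CPM, with 72.99 ± 21.9 CPM in Per (SD, n = 4 each).

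Zm00001d012572 had the highest End level among lost features. It stood at 139.9, 387, 72.8 and 479 CPM in EAS replicates 1 to 4, and at 2405, 3306, 2187 and 4460 CPM in End replicates 1 to 4 (log2 fold change -3.52 ± 0.56 SE by edgeR, adjusted p = 1.01e-05). The EAS libraries spread widely, with replicates 2 and 4 above the others, and still lay below every End library. The ratio of End over EAS within same-numbered pairs was 17.2, 8.54, 30.1 and 9.30. Like Zm00001d051110, it peaked in SAL, at 7324 ± 1535 CPM, with 1633 ± 364 CPM in Per (SD, n = 4 each).

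**Figure D3:**
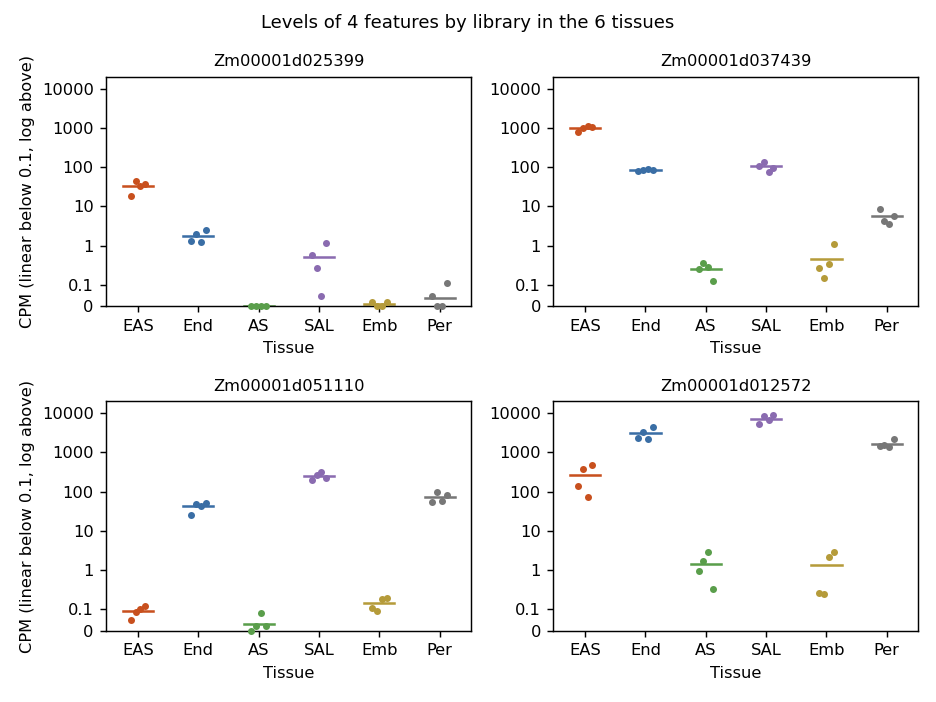
Level of the 4 named features in CPM (vertical axes, linear below 0.1 and logarithmic above) in each library of the 6 tissues (horizontal axes); points are libraries and bars are means of 4. The upper features are highest in EAS, and the lower features are highest in SAL and low in EAS, AS and Emb, except that Zm00001d012572 still averages 270 CPM in EAS.

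Across the 6 tissues, most features that EAS gained peaked in EAS, and most that it lost peaked in the outer tissues. Of the 401 gained features, 257 (64.1%) had their highest mean in EAS, against 20.0% of all tested features. The rest peaked in Per (47), SAL (45), Emb (32) and AS (20). At 20 CPM or more, 68 of the 76 peaked in EAS, and 28 had an EAS mean at least 8 times that of each other tissue. Since features higher in EAS than in End cannot peak in End, these shares describe the sets and were not tested.

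Of the 1254 lost features, 570 (45.5%) peaked in Per and 294 (23.4%) in SAL, together 68.9% against 35.8% of all tested features. Another 158 peaked in AS, 123 in Emb and 109 (8.69%) in End. Of the 105 at 20 CPM or more in End, 61 peaked in SAL or Per, 26 in End and 18 in AS or Emb. The median level of the 1254 was 4.78 CPM in Per, 2.79 in SAL, 1.00 in End, 0.606 in Emb, 0.311 in AS and 0.0422 in EAS. EAS had the lowest mean of the 6 tissues for 907 of the 1254 (72.3%), against 24.6% of all tested features. Both shares include features where EAS tied with another tissue for the lowest mean, as at 0 CPM. Features lower in EAS than in End can neither peak in EAS nor be lowest in End. Features low in both tissues passed the low-count filter only through other tissues, and so peak there. Of the 1254, 802 were called 8-fold lower again with the 8 libraries fitted alone, where 22572 features were tested. These shares thus also describe the set, are partly fixed by the filter and were not tested. Within this set, End had intermediate levels of many features whose level was highest in the pericarp or the scutellar aleurone layer, and EAS carried little of them.

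**Figure D4:**
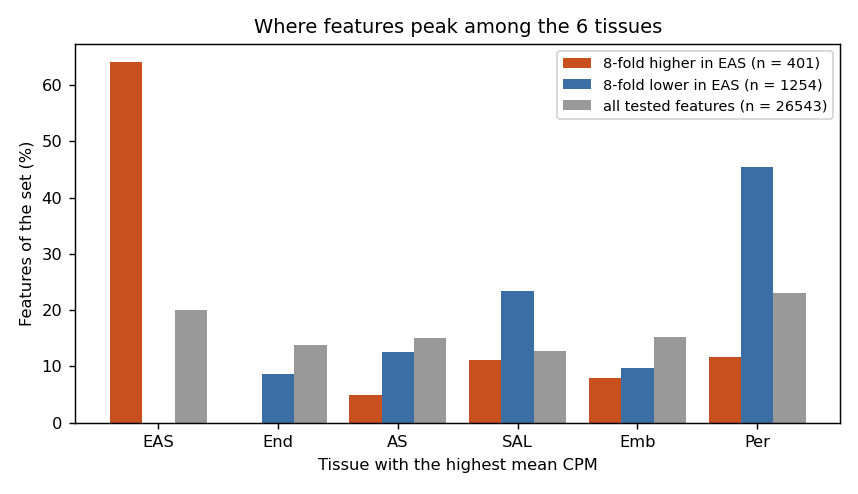
Share of features (vertical axis, percent) by the tissue that holds their highest mean CPM (horizontal axis), for the 401 features 8-fold higher in EAS (orange), the 1254 features 8-fold lower in EAS (blue) and all 26543 tested features (grey). Gained features peak in EAS in 64.1% of cases, and lost features in Per or SAL in 68.9%.

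Features of neighbouring tissues were followed in EAS and End with panels that used no EAS or End library. The embryo-side panel held 30 features with at least 20 CPM in every AS and Emb library and under 0.5 CPM in every SAL and Per library. Its summed level was 3.74 to 6.20 CPM in the EAS libraries and 0.951 to 1.99 CPM in the End libraries, against 2751 to 3165 CPM in the AS libraries. Of its features, 29 had a mean under 1 CPM in EAS and 30 had one in End. In EAS 4 were called 8-fold higher and 1 was called 8-fold lower, beside 1.51% and 4.72% of all tested features. At any fold 7 were higher and 1 lower, beside 30.2% and 32.0%. The median log2 fold change of these 30 was 1.56, against -0.01 for all tested features. The panel's summed level was thus higher in every EAS library than in any End library, and small beside that of AS. In the tissues chosen as low it was 2.12 to 3.41 CPM in SAL libraries and 1.06 to 5.86 CPM in Per libraries, so Per overlapped EAS. Of the 401 gained features, 52 (13.0%) peaked in AS or Emb. The part of embryo RNA in the gained features was not tested.

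The outer-tissue panel held 63 features with at least 20 CPM in every SAL and Per library and under 0.5 CPM in every AS and Emb library. Its summed level was 3039 to 4994 CPM in the EAS libraries and 3899 to 4295 CPM in the End libraries, so the sums overlapped. In the SAL libraries it was 8926 to 11993 CPM. The choice of the panel did not exclude features that endosperm itself expresses, so it does not measure RNA carried over from outer tissues. Single features behaved unlike the sum: 22 of the 63 were called 8-fold lower in EAS and 0 were called 8-fold higher, beside 4.72% and 1.51% of all tested features. At any fold 29 were lower and 11 higher, beside 32.0% and 30.2%. In EAS, 17 of the 63 had a mean under 1 CPM, and in End none did. The median log2 fold change of the panel was -0.02, against -0.01 for all tested features. The part that the makeup of the End samples had in the lost features was not tested.

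EAS transcripts were also less dominated by a few genes. The 10 most abundant features of a library took 9.32% ± 0.865 of its reads in EAS and 15.1% ± 0.780 in End (SD, n = 4 each). The 100 most abundant features of a library took 28.8%, 22.9%, 25.6% and 25.1% of the reads in EAS replicates 1 to 4, and 36.3%, 32.8%, 36.0% and 34.9% in End replicates 1 to 4. The groups did not overlap (difference in means -9.39 percentage points, exact two-sided permutation p = 0.0286, the smallest that 4 against 4 can give, and 0.0476 adjusted over 5 measures). Taken as same-numbered pairs, all 4 differences had this direction, and an exact sign-flip test cannot give less than its p of 0.125. Among the 100 features with the highest mean over the 8 libraries, 28 were at least 2-fold lower in EAS and 4 at least 2-fold higher, beside 15.9% and 8.27% of all tested features. At any fold 51 were lower and 18 higher, beside 32.0% and 30.2%. Their median log2 fold change was -0.35. These 100 were chosen by their levels in the same 8 libraries, so the numbers describe them and are no separate support. The number of features at 1 CPM or more was 18536 ± 220 in EAS and 18993 ± 191 in End (SD, n = 4 each), a difference that the exact permutation test did not call (p = 0.0571, adjusted p = 0.0714).

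MicroRNA loci moved in both directions. Of the 154 loci, 48 had enough reads to be tested, 2 were called 8-fold higher in EAS against 1.51% of all features, and 8 were called 8-fold lower against 4.72%. Of those 8 loci, 7 passed the filter on low counts only with the other tissues in the fit, and 1 was called 8-fold lower when the 8 libraries were fitted alone. Under glmTreat, edgeR's test against a minimum fold, 4 were. A further 3 were called 2-fold lower, and 35 had no call. The median log2 fold change over the 48 loci was -0.19. Of the 106 loci not tested, 80 had 0 reads in the 8 libraries and the highest, MIR396c, had 36. The counts come from precursors, and levels of mature microRNAs were not measured.

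MIR156j was one of the gained loci. The MIR156 family yields the microRNA that restrains SPL transcription factors, regulators of developmental phase in plants. It had 6.41, 7.76, 8.28 and 10.1 CPM in EAS replicates 1 to 4, and 0.713, 0.553, 0.550 and 0.770 CPM in End replicates 1 to 4. All EAS libraries were above all End libraries (log2 fold change 3.64 ± 0.21 SE by edgeR, adjusted p = 6.06e-13). Within same-numbered pairs the level in EAS was 8.99, 14.04, 15.05 and 13.1 times that in End.

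Among the 6 tissues MIR156j was highest in EAS, followed by SAL at 4.08 ± 0.801 CPM (SD, n = 4). The EAS level was higher than that of SAL (log2 fold change 1.02 ± 0.16 SE by edgeR, adjusted p = 3.4e-06, in a contrast where 36.0% of features were higher in EAS). The 4 AS libraries together held 1 read of it. Of the 6 other tested MIR156 loci, MIR156i was called lower and 5 had no call. Each of those 5 had 4 reads or fewer in either tissue, so none came near the 1367 reads of MIR156j in EAS. With so few reads, their folds between the tissues are poorly determined. MIR156e, at 7.87 ± 0.439 CPM in AS, had 1 read over the 4 EAS libraries and 0 reads in End.

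MIR159f was the other gained locus, of the family that restrains GAMYB transcription factors, which act in aleurone and anthers. It had 1.74, 2.24, 2.64 and 2.35 CPM in EAS replicates 1 to 4, and 0.208, 0.262, 0.214 and 0.224 CPM in End replicates 1 to 4. The groups were wide apart (log2 fold change 3.29 ± 0.25 SE by edgeR, adjusted p = 8.31e-11), and the within-pair ratios of EAS over End were 8.37, 8.56, 12.3 and 10.5. The next highest tissue was Emb at 0.609 ± 0.137 CPM, while SAL stood at 0.339 ± 0.165 and AS at 0.0553 ± 0.0188 (SD, n = 4 each). Against SAL, the EAS level was higher by a log2 fold change of 2.86 ± 0.22 (SE by edgeR, adjusted p = 2.77e-11).

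MIR159a, the other tested locus of that family, went the opposite way. It had 1 read in the EAS libraries, in replicate 4, and 11 reads in the End libraries, a ratio of End over EAS of 13.1 with a 95% counting interval of 1.91 to 565. In the pair numbered 4 both tissues held 1 read. It was called (log2 fold change -3.22 by edgeR, adjusted p = 0.00299), and without EAS replicate 4 the log2 fold change was -4.91. The log2 fold change was between -2.98 and -2.78, short of 8-fold, on library size alone and without EAS replicate 1, 2 or 3 or End replicate 2. Its level in either tissue was far below that of Emb, 7.44 ± 0.402 CPM.

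**Figure D5:**
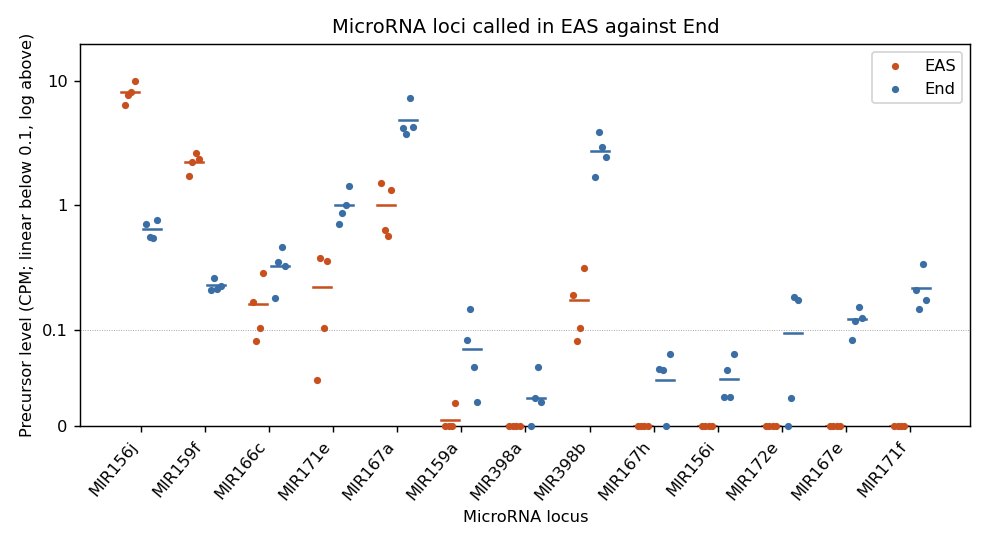
Precursor level in CPM (vertical axis, linear below 0.1 and logarithmic above) of the 13 microRNA loci called at 2-fold or more (horizontal axis), by library; orange points are EAS, blue points End, and bars are means of 4. MIR156j and MIR159f lie higher in EAS and the other 11 loci lower, 6 of them with 0 reads in EAS.

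Among the 8 loci called 8-fold lower, MIR398b had the most reads. MIR398 microRNAs restrain copper/zinc superoxide dismutases in plants. MIR398b had 0.191, 0.0880, 0.103 and 0.311 CPM in EAS replicates 1 to 4, against 1.69, 3.90, 2.93 and 2.43 CPM in End replicates 1 to 4 (log2 fold change -3.97 ± 0.58 SE by edgeR, adjusted p = 3.12e-06). All EAS libraries lay below all End libraries. Its partner MIR398a rested on 0 reads in EAS and 4 reads in End, its libraries overlapped, and the bound is at least 1.59-fold lower (by edgeR, adjusted p = 0.0467). That call was lost in 7 of 8 fits that left out 1 replicate, all but the one without End replicate 1 (edgeR adjusted p from 0.0681 to 0.128).

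Another 5 of the lost loci also had 0 reads in EAS, so that each fold is a bound against 3 reads. MIR171f, of a family that restrains GRAS-domain regulators, had 7, 5, 11 and 7 reads in End replicates 1 to 4 and is bounded as at least 11.9-fold lower in EAS (by edgeR, adjusted p = 0.000111). MIR167e, of the family that restrains the auxin response factors ARF6 and ARF8, had 3, 4, 5 and 5 reads in End replicates 1 to 4 and is bounded as at least 6.76-fold lower (by edgeR, adjusted p = 5.4e-05). For both, every End library held reads. Both also had 0 reads in AS and Emb, and were highest in Per, at 2.05 ± 0.263 CPM for MIR171f and 1.42 ± 0.0919 CPM for MIR167e (SD, n = 4).

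The remaining bounds were weaker. MIR172e, whose microRNA restrains AP2-type factors, had 14 reads in End, 13 of them in replicates 3 and 4, and was at least 5.57-fold lower (by edgeR, adjusted p = 0.0108). MIR167h and MIR156i had 7 reads each in End and were each at least 2.78-fold lower (by edgeR, adjusted p = 0.0179 and 0.0127). For MIR172e and MIR167h, 1 End library also had 0 reads. MIR172e had 0 reads in AS and Emb as well, and was highest in SAL at 0.863 ± 0.239 CPM (SD, n = 4). MIR167h and MIR156i had 202 and 361 reads in AS. The fitted folds of all 3 passed 8, yet counting error leaves smaller folds possible.

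In the MIR167 family, 3 of the 7 tested loci were called lower and 4 had no call, where 32.0% of all tested features were lower at any fold. MIR167g carried most of the family's reads, with 47.6, 36.4, 45.9 and 49.1 CPM in EAS replicates 1 to 4 and 55.5, 60.1, 50.6 and 61.6 CPM in End replicates 1 to 4. The EAS libraries lay below the End libraries, but the fit did not call the difference (log2 fold change -0.35 ± 0.24 SE by edgeR, adjusted p = 0.212). MIR167a was called 2-fold lower, at 1.502, 0.638, 0.564 and 1.34 CPM in EAS replicates 1 to 4 against 4.19, 3.78, 7.34 and 4.32 CPM in End replicates 1 to 4 (log2 fold change -2.27 ± 0.39 SE by edgeR, adjusted p = 2.86e-05).

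MIR171e and MIR166c were the other loci called 2-fold lower. MIR171e had 0.0477, 0.374, 0.103 and 0.359 CPM in EAS replicates 1 to 4, against 0.713, 0.873, 1.01 and 1.44 CPM in End replicates 1 to 4 (log2 fold change -2.17 ± 0.38 SE by edgeR, adjusted p = 3.08e-05). The groups did not overlap, and EAS replicates 2 and 4 were again the higher ones. MIR166c, of the family that restrains class III HD-ZIP regulators, had 0.167, 0.0880, 0.103 and 0.287 CPM in EAS replicates 1 to 4 and 0.178, 0.349, 0.459 and 0.323 CPM in End replicates 1 to 4. Its libraries overlapped, and its call (log2 fold change -1.01 ± 0.41 SE by edgeR, adjusted p = 0.0364) was lost in 6 of 8 fits that left out 1 replicate, those without EAS replicate 1, 2 or 3 or End replicate 2, 3 or 4.

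Of the 35 loci with no call, MIR167g aside, none exceeded the 0.408 CPM of MIR167d in EAS or its 0.584 CPM in End. There were 8 loci with 0 reads in both tissues, MIR156b, MIR160d, MIR164g, MIR166a, MIR171d, MIR319a, MIR390a and MIR399j. Several precursors detected in the neighbouring scutellum were near 0 in both EAS and End. Of 15 loci with a mean of 1 CPM or more in AS, 9 were under 0.05 CPM in EAS. Among them, MIR164b had 5.39 ± 1.11 CPM in AS and 3 reads over the 4 EAS libraries. In End, the same 9 had means from 0 to the 0.0815 CPM of MIR408b, so such low levels were not particular to EAS. MIR166d, at 6.64 CPM in AS, averaged 0.134 CPM in EAS and 0.238 CPM in End and had no call. MIR160d, whose family acts on auxin response factors, had 2.72 ± 0.162 CPM in AS and 0 reads in EAS, which allows up to 0.0178 CPM over the 4 libraries.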

How the data were processed

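Poly(A)-selected, paired-end, unstranded TruSeq libraries are named in the labels' protocols. The deposited values are raw read counts per feature, 1 file per library, with summary rows of the kind htseq-count writes. TopHat2, Bowtie2 and build B73 RefGen_v4 are listed in the submitters' processing notes; for versions, annotation release and counter settings, nothing is given in the sources used here. Records with several placements were 11.6% to 13.8% of an EAS library and 13.8% to 16.2% of an End library, those outside features 4.24% to 4.78% and ambiguous ones 1.26% to 2.63%; all were left out. Near-identical gene copies and genes overlapping on opposite strands are therefore uncertain. Of 41614 identifiers 0 matched the RefSeq gene table (assembly Zm-B73-REFERENCE-NAM-5.0), and 153 of 154 microRNA loci did; gene lists by symbol could not be used.

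Counts were analysed with edgeR 4.0.16 in R 4.3.3: filterByExpr by tissue with a minimum count of 10, TMM scaling, and a quasi-likelihood fit (glmQLFit, glmQLFTest) of tissue over 24 libraries, with Benjamini-Hochberg adjustment over 26543 features. The SE is the log2 fold change divided by the square root of F, which describes spread and gives no interval. A call at 8-fold needs an adjusted p under 0.05 and a log2 fold change of at least 3 in size. Identifiers were named by rule: of those called 8-fold with a mean of 20 CPM in the higher tissue and no overlap of libraries, the 1 with the largest fold and the 1 with the highest level per direction; microRNA loci were named where called at 2-fold. Members, lists and this rule were chosen with earlier results of these data known. Bounds, floors and counting intervals (exact, 95%) cover counting error only.

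Per the labels, same-numbered EAS and End libraries share a harvest day, except number 3, whose labels differ. Deviations of same-numbered libraries from their tissue means correlated at 0.244, 0.0959, 0.0808 and 0.194 for numbers 1 to 4. Those of differently numbered libraries correlated at -0.179 to 0.0455, below each of these. The main fit holds no term for the replicate number. The design text calls the replicates biological, without naming plants, so the p-values here speak of spread among libraries; replicate libraries differed beyond counting noise (chi-square per degree of freedom 14.6 or more). The fitting step was tested on simulated data, with the same spread setting for all features and no changed features at low levels. That test therefore does not cover calls at low levels or the spread among the real libraries. Alternatives were other scalings, filters, DESeq2 1.42.0, a replicate block, glmTreat, fits to 8 libraries and fits without 1 replicate.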

Additional observations from a re-analysis of the deposited data

Results flagged for a closer look

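In groups of 4 libraries, 1 library was set apart from the other 3 in 3 of 44 groups examined. For values on a continuous scale, chance alone sets apart about 1 in 20. MIR167a stood at 7.34 CPM in End replicate 3, against 3.78 to 4.32 CPM in the other End libraries. MIR159a stood at 0.0240 CPM in EAS replicate 4, a single read, against 0 in the other EAS libraries. Any group with reads in only 1 library is set apart, so the chance rate does not hold for it. End replicate 1 had 18709 features at 1 CPM or more, against 19054 to 19122 in the other End libraries.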

How the results depend on the processing

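The 8-fold counts of 401 higher and 1254 lower ranged from 380 to 452 and from 1167 to 1373 when 1 replicate was left out, and were 409 and 1271 with the replicate block over 24 libraries; no other count changed by over 1.5 times under that block. They fell to 216 and 507 with a filter of 1 CPM in 4 of the 8 libraries, and the lower count to 825 when the 8 libraries were fitted alone, where fewer features (19301 and 22572) were tested. Under glmTreat, which tests against a 2-fold change by construction, 1364 features were higher and 2722 lower at any fold. The microRNA loci called 8-fold lower, 8 at first, were 1 in both fits to the 8 libraries, with and without the replicate block, 1 with the CPM filter and 4 under glmTreat; those higher, 2 at first, were 5 with no filter. Of 17 named features, 12 kept an adjusted p under 0.05 wherever they were tested, though MIR159a fell short of 8-fold in 5 of those fits. MIR167h, MIR156i and MIR172e lost it under glmTreat alone; MIR166c and MIR398a lost it under 5 and 4 alternatives beside the left-out replicates, MIR398a under DESeq2 too.

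Without 1 replicate, an exact permutation p cannot fall under 0.0571: the EAS minus End differences ranged from -6.12 to -5.43 percentage points for the 10 most abundant features, from -10.5 to -8.49 for the 100 most abundant and from -3.02 to -2.20 for records not uniquely placed. As 4 pairs the differences stay -5.78, -9.39 and -2.58 (replicate block, smallest possible p 0.125). The share of reads in microRNA loci, -0.000205 percentage points and not called at first, ranged from -0.000463 to 4.99e-06 percentage points without 1 replicate and turned sign without EAS replicate 2, and the number of features detected turned sign at a 5 CPM limit, with 61.75 more in EAS (exact permutation p = 0.686); the cause was not tested. Depth limits the loci with few reads, whose bounds are given beside them.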
